A study of Mus musculus with 6 samples.

Results

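This account covers 32 genes of sterol synthesis, uptake and efflux among the 24062 gene symbols measured by RNA-seq in newborn mouse heart ventricles. The genes were chosen by pathway membership, with the Med12cKO-against-control values of these libraries already known. Their differences between the groups are therefore given as descriptions. Any p-value of a single member comes from the fit over all genes, and the list itself was not tested. They comprised 19 enzymes that build cholesterol from acetyl-CoA, 5 genes that sense sterols, 3 genes of sterol uptake and intracellular transport, and 5 genes of efflux and its LXR receptors. All 32 were present in the table and all 32 passed the filter on low counts. Ventricles came from male C57/Bl6N mice at postnatal day 1. The 3 control libraries (CTL) were from mice without Cre recombinase. The 3 Med12cKO libraries were from mice that carried Cre to delete Med12, which encodes a subunit of the Mediator complex. The cells in which Cre acted are not given in the labels. The Cre driver, and whether the controls carried the floxed allele, are not given in the sources used here. Cre was present only in the Med12cKO mice, so its effect and that of losing Med12 cannot be told apart.

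Cells make cholesterol from acetyl-CoA through mevalonate, farnesyl diphosphate, squalene and lanosterol, and they also take it up in lipoproteins. When sterols in the endoplasmic reticulum run low, the escort protein SCAP carries the SREBP transcription factors to the Golgi, where they are cleaved and freed to switch on synthesis and uptake genes. INSIG proteins hold SCAP back when sterols are plentiful. When oxysterols accumulate, the LXR receptors switch on the ABC transporters that export cholesterol. Mediator is linked to this circuit in other cells, since its subunit MED15 binds SREBP and its kinase CDK8 phosphorylates it.

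Total counts ran from 8453346 to 10911698 per library. Values below are CPM, counts divided by a library size that TMM had adjusted for composition. Med12 itself stood at 103, 176 and 113 CPM in control replicates 1 to 3 and at 61.6, 85.0 and 41.3 CPM among Med12cKO replicates 1 to 3. The groups did not overlap, with an exact two-sided permutation p of 0.1, the smallest that 3 against 3 libraries can give. The log2 fold change was −1.06 (SE 0.30), which passed with DESeq2 (adjusted p = 0.024) and not with edgeR (adjusted p = 0.765). Of 13629 genes tested with edgeR's quasi-likelihood test, 3 passed an adjusted p of 0.05, which is 0.022% of them. Markers of heart muscle, 6 genes, were abundant throughout but mostly lower in Med12cKO. They summed to 41770, 40180 and 32510 CPM in control replicates 1 to 3. In Med12cKO replicates 1 to 3 they summed to 27080, 33470 and 33290 CPM, so the ranges overlapped. The part of this in the sterol values was not tested. Thymus T cell markers summed to 734 CPM in control replicate 3 and 737 CPM in Med12cKO replicate 1 and to at most 4.49 CPM elsewhere. Liver markers summed to 114 and 31.8 CPM in Med12cKO replicates 1 and 2 and to at most 2.97 CPM elsewhere. Skeletal muscle markers summed to 241 CPM in Med12cKO replicate 1 and to between 72.9 and 83.9 CPM in the other libraries. In these bulk samples, fewer cells of a type and less RNA per cell cannot be told apart.

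Genes of cholesterol synthesis mostly measured higher in Med12cKO ventricles, and the 5 efflux and LXR genes lower to varying degrees. Among the 19 enzymes 15 had a positive log2 fold change, with a median of 0.25. The efflux and LXR genes all had a negative one, from −0.35 for Abca1 to −0.03 for Nr1h3, with a median of −0.22. The LXR receptor genes Nr1h2 (−0.06, SE 0.14) and Nr1h3 (SE 0.22) lay within their SE of 0. Over all 13629 genes the median was 0.01 and 7110 were positive. None of the 32 genes passed edgeR over all genes, and none passed DESeq2, which called 0.489% of the 12475 genes to which it gave an adjusted p. The lowest adjusted p of a member was that of Msmo1, 0.529 with edgeR and 0.343 with DESeq2. At an unadjusted p under 0.05 edgeR had 6 of the 32, 4 higher and 2 lower, where 3.78% of all genes tested were at that level. Without control replicate 2 there were 3 of the 32, with 2.35% of all genes. Without both control replicate 3 and Med12cKO replicate 1 there were 2, Sqle higher and Npc1 lower, with 2.37% of all genes. Since these values were known when the genes were chosen, nothing is read from these counts.

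In 6 of the 32 genes every Med12cKO library lay above every control, and in 3 every one lay below. The same held for 4.59% of all genes tested in the upward direction and for 3.64% in the downward direction. The 6 were the synthesis enzymes Fdps, Sqle, Cyp51, Msmo1 and Nsdhl and the sterol sensor Insig1. The 3 were the efflux transporter Abca1, the LXR target Mylip and the lysosomal sterol exporter Npc1. Without control replicate 3 and Med12cKO replicate 1, the libraries with thymus T cell markers, the counts were 8 and 4, and all genes stood at 10.9% and 10.3%. Fewer libraries are separated more often. Without Med12cKO replicate 2 the counts were 10 and 6, with 8.82% and 9.64% of all genes, and without Med12cKO replicate 3 they were 11 and 4, with 11.5% and 15.2%.

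**Figure D1:**
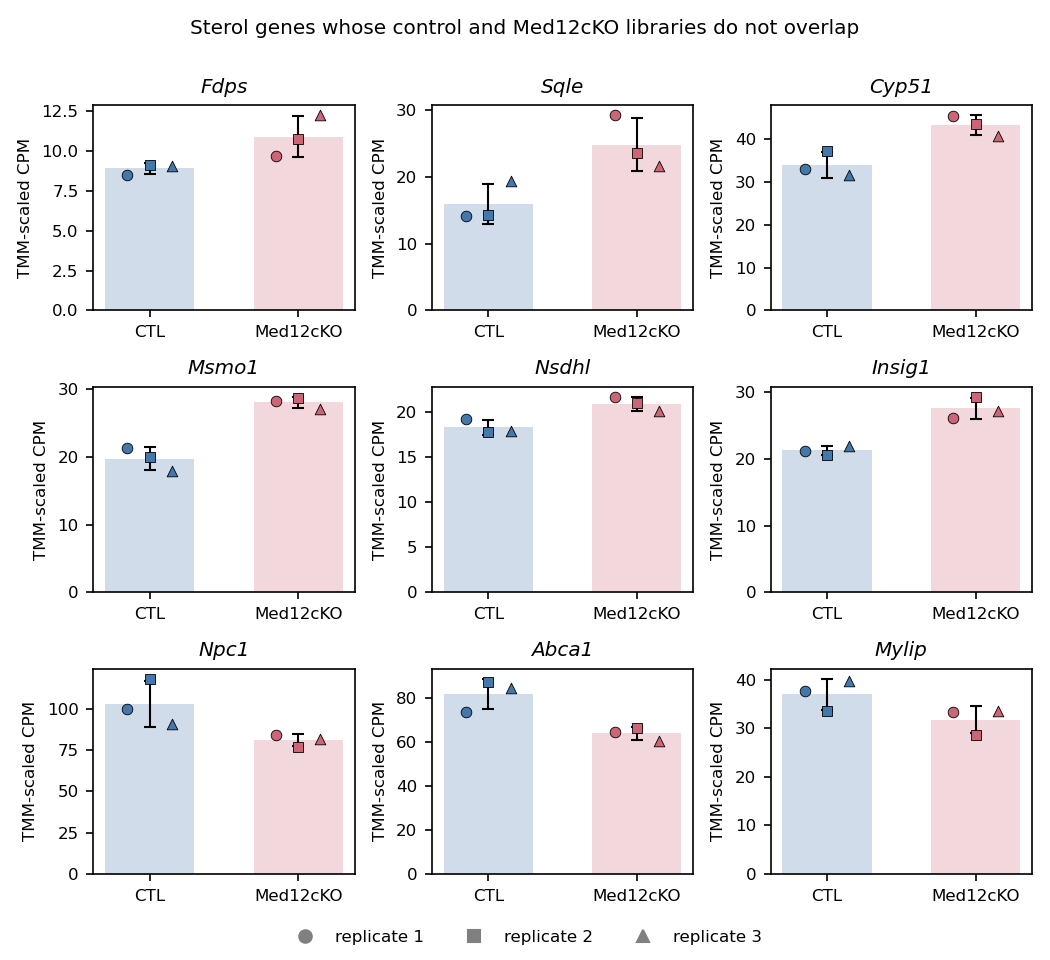
TMM-scaled CPM (vertical axes, from 0) of the 9 sterol genes whose control (blue) and Med12cKO (red) libraries did not overlap. Points are libraries, with a marker for each replicate number, bars are means and error bars are SD with n = 3. Msmo1 lay between 27.1 and 28.7 CPM in Med12cKO, above the highest control at 21.3 CPM, while Mylip was separated by less than 0.1 CPM.

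The mevalonate pathway, which carries acetyl-CoA to farnesyl diphosphate, showed small differences. Hmgcs1, which makes HMG-CoA, measured 125, 136 and 114 CPM in control replicates 1 to 3 and 138, 147 and 127 CPM in Med12cKO replicates 1 to 3. The groups overlapped, and the log2 fold change was 0.13 (SE 0.12). Mvk, the mevalonate kinase, measured 13.0, 10.6 and 10.9 CPM in control and 13.1, 12.6 and 16.9 CPM in Med12cKO, with a log2 fold change of 0.31 (SE 0.19). Its Med12cKO replicate 3 was high, and the other 2 lay within or next to the control range. Fdps, which makes farnesyl diphosphate, measured 8.52, 9.15 and 9.09 CPM in control and 9.70, 10.8 and 12.3 CPM in Med12cKO, with a log2 fold change of 0.29 (SE 0.18). Acat2, the cytosolic thiolase that opens the pathway, measured 11.7, 7.72 and 13.4 CPM in control and 14.3, 12.3 and 13.0 CPM in Med12cKO. Its spread in control covered 2 of the 3 Med12cKO libraries. The kinase Pmvk, the decarboxylase Mvd and Ggps1, which makes geranylgeranyl diphosphate for protein prenylation, had log2 fold changes between −0.06 and 0.05. Idi1, the isomerase of isopentenyl diphosphate, measured 3.57, 5.53 and 6.31 CPM in control and 6.32, 8.59 and 3.44 CPM in Med12cKO, with overlapping groups.

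Reads from some of these genes could have been counted elsewhere. Fdps has 3 annotated processed pseudogenes, Idi1 has 2, and Fdft1 and Ggps1 have 1 each that match their longest coding transcript at 95% identity or more over at least 200 bases. Acat2 matches the coding gene Acat3 over 1477 bases at 97.7%, and Tcp1 over 445 bases at 98.7%. How reads with several matches were counted is not given in the sources used here, and the values of these 5 genes are uncertain to that extent. At least 10% of the annotated exon bases are shared with another gene model in 5 genes, namely Fdps (26.7%), Fdft1 (18.3%), Scap (13.2%), Hmgcs1 (12.1%) and Tm7sf2 (12.1%).

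The steps from squalene to cholesterol held the members with the largest log2 fold changes. Sqle, the squalene epoxidase that adds the first oxygen of the sterol (chromosome 15, 59315077 to 59331192, plus strand, GRCm38), measured 14.04, 14.29 and 19.3 CPM in control and 29.2, 23.6 and 21.5 CPM in Med12cKO. All Med12cKO libraries lay above all controls, and the log2 fold change was 0.64 (SE 0.19). The highest library of each group was the one with thymus T cell markers. Without those 2 libraries the log2 fold change was 0.67. Msmo1, the oxidase that starts removal of the methyl groups next to the hydroxyl of the sterol (chromosome 8, 64718139 to 64733792, minus strand), measured 21.3, 19.9 and 17.9 CPM in control and 28.3, 28.7 and 27.1 CPM in Med12cKO. The Med12cKO libraries were close together and stood apart from the controls, with a log2 fold change of 0.51 (SE 0.13). Cyp51, the demethylase that acts on lanosterol, measured 33.1, 37.4 and 31.6 CPM in control and 45.6, 43.6 and 40.8 CPM in Med12cKO, with a log2 fold change of 0.35 (SE 0.12). Nsdhl, the dehydrogenase that works after Msmo1, measured 19.2, 17.7 and 17.9 CPM in control and 21.7, 20.9 and 20.1 CPM in Med12cKO. Its groups were separated by a narrow margin, with a log2 fold change of 0.19 (SE 0.14). The choice to give Cyp51, Nsdhl, Ebp, Hsd17b7, Idi1, Insig2, Npc2 and Mylip in every library was made after their values were seen.

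The other enzymes of this stretch differed among themselves. Ebp, the sterol isomerase, measured 17.95, 19.9 and 21.8 CPM in control and 26.8, 21.2 and 28.3 CPM in Med12cKO, and Med12cKO replicate 2 lay below the highest control. Hsd17b7, the ketoreductase that shares the methyl-removal cycle with Msmo1 and Nsdhl, was the only enzyme with a log2 fold change under −0.1. It measured 91.3, 100.1 and 78.6 CPM in control and 68.3, 90.4 and 65.4 CPM in Med12cKO, and its log2 fold change was −0.27 (SE 0.15). Fdft1, the squalene synthase, and Dhcr7, a reductase of the last steps, had log2 fold changes of 0.02 (SE 0.17) and −0.00 (SE 0.15), with overlapping groups. The reductase Tm7sf2 and the desaturase Sc5d stood at 0.30 (SE 0.19) and 0.25 (SE 0.22), also with overlap.

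Lss, the lanosterol synthase that closes the sterol rings, had the second largest log2 fold change of the stretch and the largest SE. It measured 3.34, 7.34 and 7.37 CPM in control and 8.57, 11.8 and 6.03 CPM in Med12cKO, from 29 to 120 counts, with a log2 fold change of 0.55 (SE 0.35). Lss, Idi1, Sc5d and the carrier gene Stard4 were all highest in Med12cKO replicate 2, and each was lowest in control replicate 1 except Idi1, whose lowest library was Med12cKO replicate 3. Those 2 libraries, control replicate 1 and Med12cKO replicate 2, are the ones whose sample description opens with the letter J, the other 4 opening with I. The meaning of the letter is not given in the sources used here. In the 4 libraries with I, the log2 fold changes of Lss, Sc5d, Idi1 and Stard4 were −0.00, −0.01, −0.27 and −0.21. The positive values of these 4 genes over all 6 libraries were thus not seen without the libraries with J. Med12cKO replicate 3, whose description opens with I, was the lowest Med12cKO library for all 4 genes. Without that library all 4 genes had every Med12cKO library above every control, as did 11.5% of all genes tested.

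**Figure D2:**
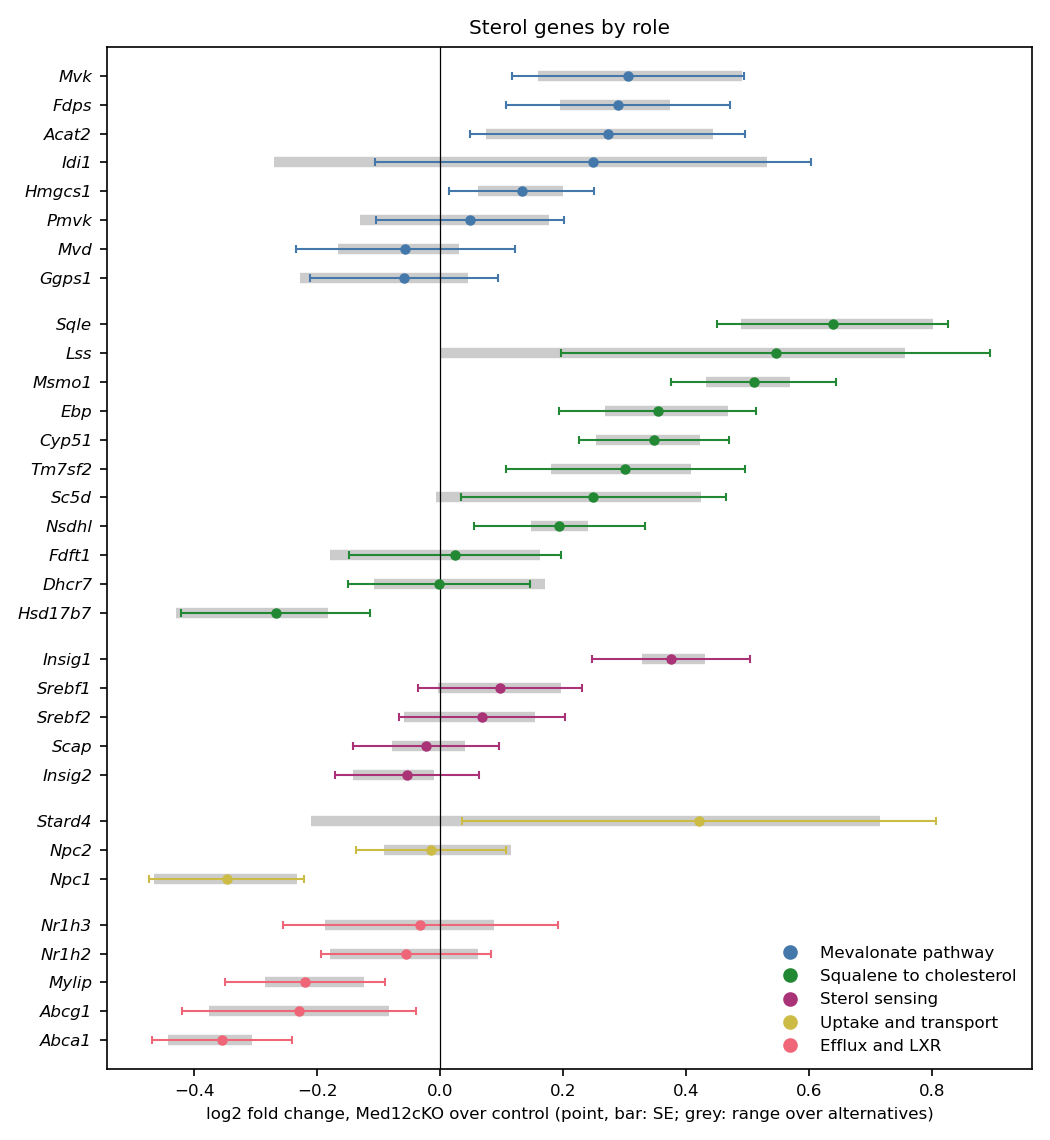
Log2 fold change of Med12cKO over control (horizontal axis) for each of the 32 sterol genes (vertical axis), coloured by role. Points carry the SE of the edgeR fit and grey bars span the 16 alternative analyses. Genes whose whole grey range lies to the right of 0 include Sqle, Msmo1, Cyp51 and Insig1. Those to the left include Abca1, Npc1, Mylip and Hsd17b7, and those that cross 0 include Idi1 and Stard4.

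Among the sterol-sensing genes Insig1 stood apart. Insig1, which encodes an anchor of SCAP and is itself a target of SREBP (chromosome 5, 28071363 to 28078662, plus strand), measured 21.2, 20.6 and 22.0 CPM in control and 26.2, 29.3 and 27.2 CPM in Med12cKO. The controls lay close together, below all Med12cKO libraries, and the log2 fold change was 0.38 (SE 0.13). Its relative Insig2, which also anchors SCAP, measured 62.4, 67.7 and 62.9 CPM in control and 57.1, 68.4 and 60.5 CPM in Med12cKO, with a log2 fold change of −0.05 (SE 0.12). Srebf1, which encodes SREBP-1, measured 66.4, 74.4 and 79.7 CPM in control and 88.0, 67.5 and 80.6 CPM in Med12cKO, with a log2 fold change of 0.10 (SE 0.13). Srebf2, which encodes the SREBP most devoted to sterol genes, measured 109, 131 and 122 CPM in control and 146, 123 and 110 CPM in Med12cKO. The groups overlapped for both factors, and the log2 fold change of Srebf2 was 0.07 (SE 0.14). Scap averaged 67.1 ± 5.21 CPM among controls and 66.0 ± 5.48 CPM among Med12cKO libraries (SD, n = 3). A transcript level does not report the cleavage that activates SREBP, which was not measured here.

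The promoters of these genes carry sequence that the choice of genes did not use. SREBP binds sterol regulatory elements, searched here as TCACNCCAC, and works beside NF-Y, which binds CCAAT. Both strands of the 250 bases before each RefSeq start (GRCm38.p6) were searched, and windows were found for 26 of the 32 genes. CCAAT occurred before 15 of 16 enzyme genes (93.8%) and 1 of 4 efflux and LXR genes (25%). It occurred before 37.5% of all 27025 genes with a window and before 40.2% of the 10193 of them tested here. The efflux and LXR gene with a match was Mylip, with 3. All 4 enzymes with a negative log2 fold change, Hsd17b7, Ggps1, Mvd and Dhcr7, had matches too. Whether a match goes with the direction of a difference was not tested. The sterol element occurred before Hmgcs1 alone, 3.85% of the 26, against 1.22% of all genes. These are matches of letters, not binding sites, and base composition was not matched between the sets. A gene without a match may still hold an element spelled otherwise or lying outside the window.

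The 4 sequences below show Hmgcs1, the gene with the sterol element, Nsdhl and Insig1, whose groups did not overlap, and Abca1 as an efflux gene for contrast. They run 5′ to 3′ on the gene's strand, end before the first annotated start of the gene, and have the matches in capitals, where ATTGG is CCAAT on the opposite strand. Nsdhl was picked after its values were seen.
Hmgcs1, chr13:119690101-119690350, plus strand: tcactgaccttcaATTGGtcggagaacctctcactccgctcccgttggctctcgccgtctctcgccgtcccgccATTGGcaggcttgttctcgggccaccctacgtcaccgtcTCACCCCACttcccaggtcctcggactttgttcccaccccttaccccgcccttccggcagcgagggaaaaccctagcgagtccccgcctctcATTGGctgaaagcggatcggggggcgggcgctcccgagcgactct
Nsdhl, chrX:72918271-72918520, plus strand: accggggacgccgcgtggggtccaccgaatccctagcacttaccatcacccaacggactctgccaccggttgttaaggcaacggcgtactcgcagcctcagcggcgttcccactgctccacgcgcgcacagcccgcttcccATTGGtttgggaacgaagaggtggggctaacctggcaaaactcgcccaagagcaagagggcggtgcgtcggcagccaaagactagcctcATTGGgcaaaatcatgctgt
Insig1, chr5:28071162-28071362, plus strand: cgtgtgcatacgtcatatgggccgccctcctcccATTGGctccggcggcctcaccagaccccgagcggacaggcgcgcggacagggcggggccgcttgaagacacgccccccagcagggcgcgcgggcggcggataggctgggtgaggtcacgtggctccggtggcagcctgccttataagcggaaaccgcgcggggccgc
Abca1, chr4:53159896-53160145, minus strand: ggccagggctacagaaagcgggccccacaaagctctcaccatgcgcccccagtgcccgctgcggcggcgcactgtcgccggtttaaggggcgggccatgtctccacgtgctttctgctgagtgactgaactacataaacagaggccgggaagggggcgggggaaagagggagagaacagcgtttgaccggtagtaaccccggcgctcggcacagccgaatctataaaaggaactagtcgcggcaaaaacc

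In Hmgcs1 the sterol element began 137 bases before the start and lay between 2 of the 3 CCAAT matches, which began 176 and 45 bases before it. Nsdhl had 2 CCAAT matches, at 109 and 20 bases before the start, and Insig1 had 1, at 216 bases before its RefSeq start. That start lies downstream of the printed Insig1 run, which stops before an earlier start in GENCODE. The Abca1 window held neither motif, which says only that these letters are not in this window.

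Genes of sterol uptake and intracellular transport went separate ways. Npc1, the membrane protein that moves cholesterol out of lysosomes, measured 99.8, 118 and 90.9 CPM in control and 84.2, 77.0 and 81.8 CPM in Med12cKO. The groups were separated, with Med12cKO the lower, and the log2 fold change was −0.35 (SE 0.13). Its soluble partner Npc2, which hands cholesterol to Npc1, measured 197, 176 and 186 CPM in control and 187, 164 and 203 CPM in Med12cKO, with a log2 fold change of −0.02 (SE 0.12). Stard4, a cytosolic sterol carrier and SREBP target, measured 4.72, 9.24 and 8.70 CPM in control and 9.92, 15 and 5.49 CPM in Med12cKO, with a log2 fold change of 0.42 (SE 0.39) and overlapping groups.

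Among the efflux and LXR genes only Abca1 and Mylip had separated groups, with Med12cKO the lower. Abca1, which exports cholesterol and phospholipid to lipid-poor apolipoprotein (chromosome 4, 53030787 to 53159895, minus strand), measured 73.9, 87.2 and 84.5 CPM in control and 64.7, 66.6 and 60.7 CPM in Med12cKO. The groups did not overlap, and the log2 fold change was −0.35 (SE 0.11). Abcg1, which exports cholesterol to mature lipoprotein, measured 18.9, 24.7 and 28.9 CPM in control and 24.0, 18.1 and 19.8 CPM in Med12cKO, with a log2 fold change of −0.23 (SE 0.19) and overlapping groups. Mylip, an LXR target that marks lipoprotein receptors for degradation, measured 37.8, 33.5 and 39.8 CPM in control and 33.4, 28.5 and 33.5 CPM in Med12cKO. Its groups were barely separated, at 33.54 CPM in the lowest control and 33.47 CPM in the highest Med12cKO library, with a log2 fold change of −0.22 (SE 0.13). The receptor genes overlapped between the groups, with Nr1h2 (LXR beta) at 80.3 ± 4.35 and 77.3 ± 12.8 CPM and Nr1h3 (LXR alpha) at 7.68 ± 1.09 and 7.53 ± 1.42 CPM (SD, n = 3).

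The median of the 5 efflux and LXR genes depended on single libraries. It was −0.08 without control replicate 3, and the number of negative values was 3 of 5 without Med12cKO replicate 2. Macrophages are rich in ABC transporters and Nr1h3, and 9 macrophage markers summed to between 195 and 325 CPM in control and between 174 and 248 CPM in Med12cKO. None of the 9 was at 0 in all libraries, and their part in the difference was not tested. Endothelial markers, 5 genes, summed to between 1166 and 1338 CPM in control and between 1086 and 1304 CPM in Med12cKO, and fibroblast markers, 6 genes, to between 4061 and 4683 CPM and between 3658 and 5505 CPM. Adipose markers, 5 genes, summed to between 476 and 690.4 CPM and between 499 and 664 CPM. Fabp4 made up most of that sum, at 4003 to 5723 counts per library. Adipoq had 68 and 56 counts in Med12cKO replicates 1 and 2, against 14, 1 and 20 in control and 10 in replicate 3. Plin1 (54 and 52 counts) and Ucp1 (29 and 34) were also highest in those libraries, whereas Cidea and Fabp4 were not. The part of adipose RNA in the lipid gene values was not tested.

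Seen by library, the enzyme medians of the groups did not overlap, whereas the efflux medians did. The median of the 19 enzymes relative to the control mean, on the log2 scale, was −0.01, 0.04 and −0.03 in the controls (replicates 1 to 3) and 0.25, 0.20 and 0.27 in the Med12cKO libraries (same order). Between 14 and 15 of the 19 lay above the control mean in each Med12cKO library, against 8 to 12 in each control. Each gene was centred on the mean of these same controls, so control values near 0 were built in. The genes were also chosen with these values known. The efflux median was −0.14, 0.05 and 0.09 in control and −0.06, −0.32 and −0.14 in Med12cKO, where control replicate 1 lay at the level of Med12cKO replicate 3. The median of all genes tested stayed between −0.02 and 0.00 in every library. In the J pair alone, 1 library against 1, the enzyme median was 0.23 and the efflux median −0.15. The 27 synthesis, sensing and uptake genes had a median of 0.13 in that pair. In the 4 I libraries the same 27 genes had a median log2 fold change of 0.12, against 0.19 over all libraries. Proliferation markers, 6 genes, summed to between 177 and 463 CPM in control and between 200 and 488 CPM in Med12cKO. Med12cKO replicate 3, at 200 CPM for proliferation and 2.58 CPM for liver markers, had the highest enzyme median. For the 27 synthesis, sensing and uptake genes the highest median was that of Med12cKO replicate 1, at 0.25, against 0.14 in replicates 2 and 3. Med12cKO replicate 1 was at 488 CPM for proliferation and 114 CPM for liver markers. The part of these markers in the differences was not tested.

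**Figure D3:**
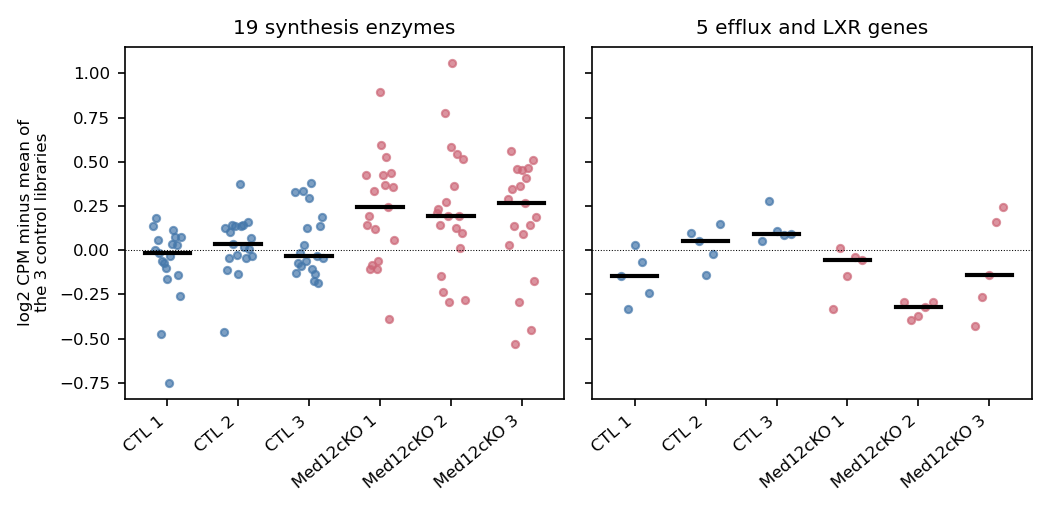
Log2 CPM minus the mean of the 3 control libraries (vertical axis) for each of the 6 libraries (horizontal axis), for the 19 synthesis enzymes and the 5 efflux and LXR genes. Points are genes and black bars are medians; the enzyme medians are 0.20 to 0.27 in Med12cKO and −0.03 to 0.04 in control, while the efflux medians of the groups overlap.

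Levels per length showed which parts of the pathway were abundant in the ventricle. On the scale of CPM per kilobase of annotated exon, control means ran from 0.557 for Lss to 34.3 for Npc2. The highest enzyme was Hmgcs1 at 27.2, with control libraries from 24.8 to 29.7, followed by Pmvk at 22.1 and Hsd17b7 at 17.6. Pmvk lay below the whole control range of Hmgcs1, and Hsd17b7 (15.4 to 19.6) lay below that of Pmvk (21.5 to 23.0). Insig2 stood at 18.5 and Insig1 at 6.87, with ranges that did not meet. Nr1h2 stood at 24.0 and Nr1h3 at 3.06, also without overlap. Srebf2 at 16.8 and Srebf1 at 13.0 did not overlap either, with 15.2 the lowest value of the former and 14.1 the highest of the latter. The 3 members with the largest log2 fold changes were low on this scale, Sqle at 2.86 in control and 4.47 in Med12cKO, Lss at 0.557 and 0.817, and Msmo1 at 3.21 and 4.57. The exon length of the annotation takes in rare transcripts, which lowers the per-length value of genes with many of them.

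**Figure D4:**
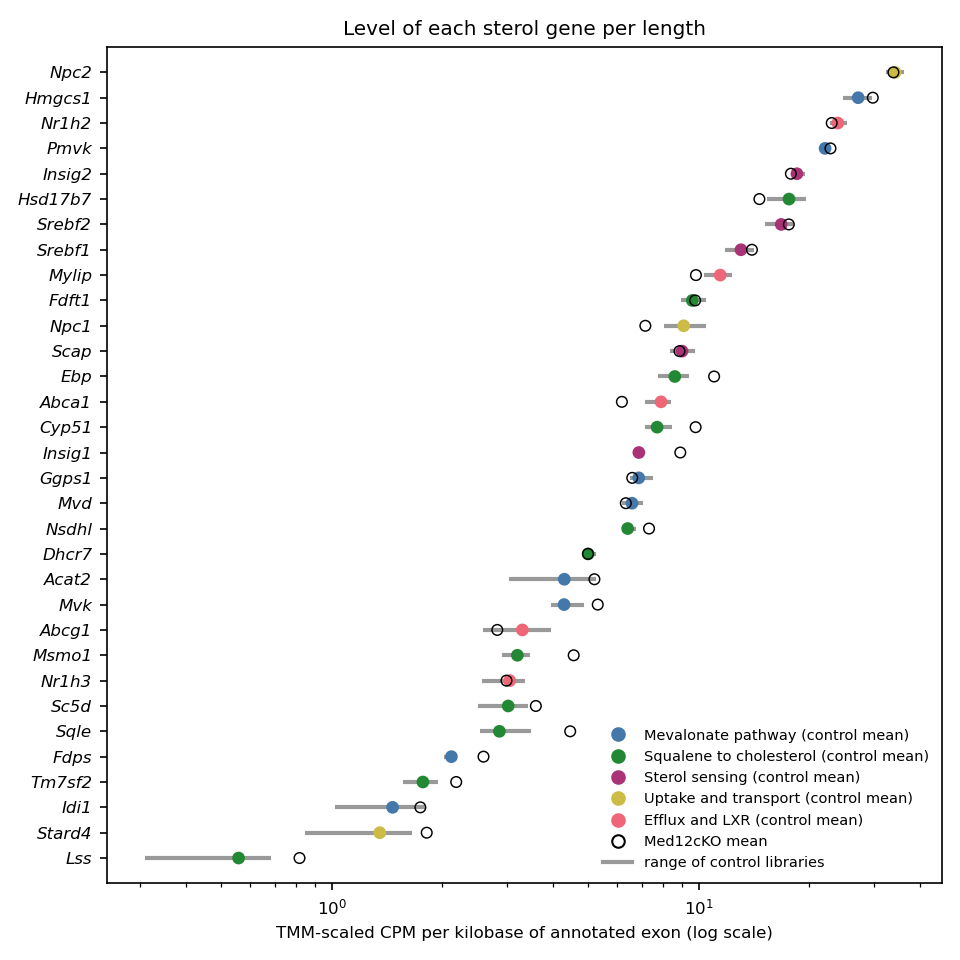
Mean TMM-scaled CPM per kilobase of annotated exon (horizontal axis, log scale) of the 32 sterol genes (vertical axis), with filled points for control, coloured by role, open circles for Med12cKO, and grey lines for the range of the 3 control libraries. Npc2 and Hmgcs1 are at the top and Lss at the bottom.

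Genes around the sterol pathway, in 5 lists with 78 genes that the choice of members did not include, gave no call. Of these genes 76 were tested, and edgeR called 0 of them over all genes in either direction, as did DESeq2. At an unadjusted p under 0.05 edgeR had 6 of the 76, against 3.78% of all genes tested. Fatty acid synthesis genes, many of them targets of SREBP-1, had 13 of 16 positive log2 fold changes and a median of 0.12, with 3 at an unadjusted p under 0.05, all higher, beside the same 3.78%. In 5 of the 16, all higher, the groups did not overlap, against 4.59% of all genes. They were Acaca, the acetyl-CoA carboxylase, Fads1, Me1, Thrsp and Acsl3, named for that reason after their values were seen. Acaca measured 19.7, 18.6 and 17.98 CPM in control and 23.5, 24.2 and 23.7 CPM in Med12cKO, and its log2 fold change was 0.34, SE 0.13, which did not pass (edgeR adjusted p = 1.00). The fatty acid synthase gene Fasn had a log2 fold change of −0.09 (SE 0.19). Among genes of the list with a mean of at least 5 CPM, the largest log2 fold changes were those of the desaturase Scd1 (0.74, SE 0.45), with 31.9 CPM in Med12cKO replicate 1 and 8.93 CPM in replicate 3, and the elongase Elovl6 (0.37, SE 0.27).

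Genes that use isoprenoids, such as the prenyltransferases, had 6 of 15 positive values, a median of −0.01 and no gene with separated groups. The largest log2 fold changes there were −0.14 (SE 0.15) for Rabggtb and −0.08 (SE 0.16) for Rce1. Lipoprotein receptors, storage enzymes and carriers had a median of −0.03 over 18 tested genes. In 2 of them, Vldlr and Osbp, all Med12cKO libraries lay below all controls, as in 3.64% of all genes tested. Vldlr, the receptor for very-low-density lipoprotein, measured 213, 223 and 204 CPM in control and 153, 200 and 145 CPM in Med12cKO, and its log2 fold change was −0.36, SE 0.14, which did not pass (edgeR adjusted p = 1.00). Gramd1b, a sterol carrier at membrane contacts, had a log2 fold change of 0.31 (SE 0.55) with overlapping groups.

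Partners and further targets of LXR had 3 of 11 positive values and a median of −0.07. Rxra, which encodes the receptor that pairs with LXR on DNA, measured 129, 140.2 and 132 CPM in control and 103, 106 and 111 CPM in Med12cKO. All Med12cKO libraries lay below all controls, and the log2 fold change was −0.33 (SE 0.105; edgeR adjusted p = 0.834, DESeq2 adjusted p = 0.343). Arl4c, another LXR target, stood at 0.15 (SE 0.17). Among 16 genes of SREBP processing, turnover and Mediator contact the median was −0.02. Rnf145, a ubiquitin ligase of sterol regulation, measured 80.3, 84.3 and 95.2 CPM in control and 107, 106 and 107 CPM in Med12cKO, and its log2 fold change was 0.30, SE 0.11, which did not pass (edgeR adjusted p = 1.00). Mbtps2, a protease that cleaves SREBP, stood at −0.13 (SE 0.15), and Med15 measured 71.0 ± 3.69 and 70.4 ± 4.87 CPM (SD, n = 3).

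**Figure D5:**
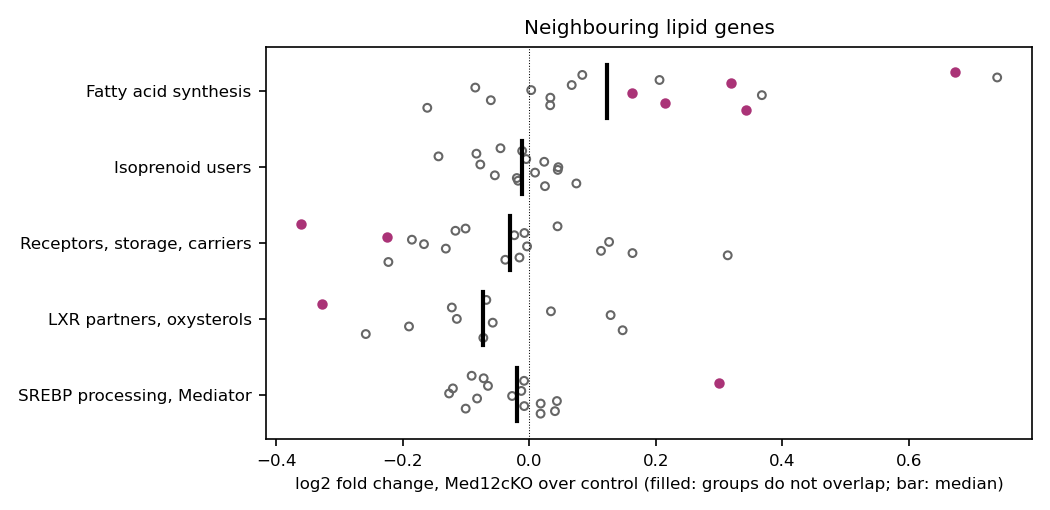
Log2 fold change of Med12cKO over control (horizontal axis) for the 76 tested genes of 5 neighbouring lists (vertical axis). Filled points are genes whose groups did not overlap and black bars are list medians; fatty acid synthesis has 5 filled points, all to the right of 0, and a median of 0.12.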

How the data were processed

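RNA-seq was made from total RNA of both ventricles of mice, as 3 control and 3 Med12cKO libraries. The deposited table holds raw counts per gene symbol, which the authors made by counting aligned reads. The submitters' processing notes name TopHat2 2.0.0, featureCounts, edgeR 3.14.0 and the mouse build GRCm38, with no settings. Strand use and the handling of reads with several matches are not given in the sources used here. From the counts, genes with low values were removed with filterByExpr (minimum count 10, minimum total 15), libraries were scaled by TMM, and Med12cKO was compared with control in edgeR 4.0.16 (R 4.3.3) with the quasi-likelihood test and Benjamini-Hochberg adjustment over 13629 genes at 0.05. The SE of a log2 fold change is its size divided by the square root of F. Alternatives used DESeq2 1.42.0, limma-voom 3.58.1, other scaling, other filters and fewer libraries. Each tool was tested on simulated data.

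Groups came from the sample labels. The labels do not say that each library is a separate animal, and p-values cover the spread among the 6 libraries, which may be technical. All pairs of libraries of a group differed by more than sampling noise (chi-square over its degrees of freedom, 14.5 to 30.8). The counting floor of 3 counts was not reached by any of the 32 genes. Positions and exon lengths are from GENCODE M21, promoters from RefSeq, and near copies were found with minimap2. Values in every library were given, by rule, for the 2 members of each role with the largest absolute log2 fold change (3 in roles of 8 or more) and for Srebf1, Srebf2, Abca1, Hmgcs1 and Sqle. In each neighbouring list the rule named every called gene and the 2 genes with the largest absolute log2 fold change at a mean of at least 5 CPM. Other genes named were picked after their values were seen. The members and all lists were chosen with earlier results of these data known. Some genes of the pathway are not reported here.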

Additional observations from a re-analysis of the deposited data

How the results depend on the processing

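None of the 32 sterol genes was called in any of 16 alternatives. Genes called higher over all genes numbered 1 with edgeR, 29 with DESeq2, 2 with limma-voom, 0 with DESeq2 size factors, 2 with library totals, 0 in the I libraries, 2 without the 2 libraries with thymus T cell markers, and 0 to 1 with 1 library left out. Genes called lower numbered 2 with edgeR, 32 with DESeq2, 1 in the I libraries and 1 to 2 with 1 library left out. Med12 had a log2 fold change of −1.06 with DESeq2, where it passed, and −1.35 to −0.79 with 1 library left out. The median of the 27 synthesis, sensing and uptake genes was 0.12 in the I libraries and 0.13 to 0.18 with 1 library left out. The efflux and LXR median was −0.27 to −0.083, and 3 to 5 of its 5 genes were negative, with 1 library left out. Separated groups numbered 12 higher and 7 lower in the I libraries (16.7% and 16.9% of all genes), and 6 to 11 higher and 3 to 6 lower with 1 library left out (7.01% to 11.5% and 5.69% to 15.2% of all genes). The cause of these changes was not tested, except that fewer libraries are separated more often. Sqle, Msmo1, Cyp51, Insig1, Abca1 and Npc1 kept their direction in all 16 alternatives. So did Acat2, Hmgcs1, Mvk, Fdps, Tm7sf2, Nsdhl, Ebp, Hsd17b7, Insig2, Abcg1 and Mylip. The alternatives reuse the same libraries, so a kept direction is not separate evidence for a gene.

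Whether the replicate numbers pair the samples could not be decided. The correlations of same-numbered deviations were −0.30, 0.41 and −0.34. The highest of any pair was 0.69, between control replicate 3 and Med12cKO replicate 1, the libraries with thymus T cell markers. With 3 libraries per group such values cannot exclude pairing. Med12 had a log2 fold change of −1.08 (SE 0.15) with a replicate block and −1.06 (SE 0.30) without it. With the replicate block, 0 genes were called higher and 2 lower, and 7 of the 32 sterol genes had an unadjusted p under 0.05, with 3.94% of all genes. At 8453346 to 10911698 counts per library, Idi1, Lss and Stard4 rested on 29 to 152 counts each, and their differences were not detectable at this depth and spread.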
